A study of Homo sapiens with 16 samples.

Results

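DNA replication licensing and nucleotide supply was examined as a group of 48 genes that prepare chromosomes for S phase, copy them and make the nucleotides for it. The members were named by their roles, in 13 role groups, and were chosen with earlier results of these data known. The counts below are thus not those of an independent list. Of the 48, 47 could be matched by transcript identifier, among 34451 genes in all and 19356 protein-coding genes. UHRF1 was not matched, so its expression was not analysed, and it enters only the counts of promoter windows. All 16 libraries of the series were used. They come from the isogenic BJ fibroblast model, which has 4 stages. Primary BJ cells are unmodified skin fibroblasts of 1 established line. The immortalized stage (BJ hTERT+) carries added telomerase, the transformed stage (BJ hTERT+ SV40+) also carries SV40 Large-T, and the metastasizing stage (BJ hTERT+ SV40+ Ras-G12V) carries mutated H-Ras on top of both. Each stage was kept for 6 passages in the same serum-containing medium at atmospheric oxygen or at 3% oxygen, called moderate hypoxia, and was harvested at the same confluence from duplicate plates named a and b. This gave 8 groups of 2 libraries. Each stage is a single line of cells, so the replicates are plates of one line and p-values measure the spread between plates.

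Replication begins with licensing. In G1 phase the origin recognition complex, CDC6 and CDT1 load the ring-shaped MCM2-7 helicase onto origins, and geminin later blocks CDT1 so that no origin is loaded again in the same cycle. In S phase the kinase CDC7 with its partner DBF4, together with MCM10, CDC45 and the GINS complex, turns the loaded rings into active helicases, after which primase and the replicative polymerases follow on the sliding clamp PCNA. Ribonucleotide reductase, thymidylate synthase, thymidine kinase and dUTPase keep the deoxynucleotides coming. Many of these genes are known targets of E2F transcription factors, which the retinoblastoma protein restrains, and SV40 Large-T is known to bind that protein.

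Levels are given in transcripts per 1000000 (TPM), a measure per transcript length that can be compared between genes but holds no read counts, so depth is unknown. Differences are log2 fold changes on the log2(TPM + 0.5) scale with a standard error (SE), from 1 limma fit over all 16 libraries. Calls needed a Benjamini-Hochberg adjusted p, over all genes tested, under 0.01 and a change beyond 2-fold. With 2 plates in each of 2 groups the smallest two-sided p of an exact permutation test is 0.333, so no such test is given. TERT stood at 0 to 0.543 TPM in the 4 primary libraries and at 31.6 to 193 TPM in the 12 others. HRAS did not mark the last stage at atmospheric oxygen, with 94.6 and 78.1 TPM in the libraries labelled metastasizing against 119.8 and 99.0 TPM in transformed cells. At 3% oxygen it stood at 143 and 772 TPM in the libraries labelled metastasizing, called higher than in transformed cells (2.58). The HRAS levels thus do not check the labels of the 2 atmospheric libraries of that stage, and metastasizing is used below as the name of the labelled group. The paper reports its own authentication from variants in the RNA reads. It states that this bore out the isogenic lines and the mutations of each stage. That check was not repeated here. All 8 fibroblast markers were detected in every library, and their summed level was 13638 to 20461 TPM in primary and immortalized cells at atmospheric oxygen and 5269 to 5690 TPM in the later stages at that oxygen level. Among markers of other cell types, the epithelial keratin KRT19 reached 143 to 203 TPM in primary cells and at most 11.5 TPM elsewhere, the leukocyte gene CD3E was listed at 0 in every library, PTPRC reached at most 1.32 TPM, CD68 stood at 42.4 to 162 TPM, and the 2 endothelial markers matched summed to at most 0.547 TPM in any library.

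Every member was well expressed. All 47 had a mean of at least 1 TPM in each of the 8 groups, so the filter on low values removed none of them. PRIM2 was the lowest in every group, with means from 1.90 to 4.67 TPM, and PCNA, TYMS or RRM2 the highest, with means from 209 to 555 TPM. The members together took 2635 and 2766 TPM in primary cells at atmospheric oxygen and 4231 and 4312 TPM at 3%. In immortalized cells the sums were 1887 and 2051 TPM at atmospheric oxygen and 3395 and 3346 TPM at 3%. Immortalized cells at atmospheric oxygen were thus the lowest of the 8 groups, and for 41 of the 47 members the lowest group mean was there. For the 6 others it was in primary cells at atmospheric oxygen. In transformed cells the sums were 4668 and 4568 TPM at atmospheric oxygen and 4574 and 4675 TPM at 3%, so the oxygen groups overlapped. In metastasizing cells they were 5339 and 5300.4 TPM against 4424 and 4743 TPM, with the atmospheric libraries higher, and 23 members had their highest group mean in metastasizing cells at atmospheric oxygen. In bulk RNA, fewer cells in S phase and less of these transcripts per cell cannot be told apart.

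**Figure D1:**
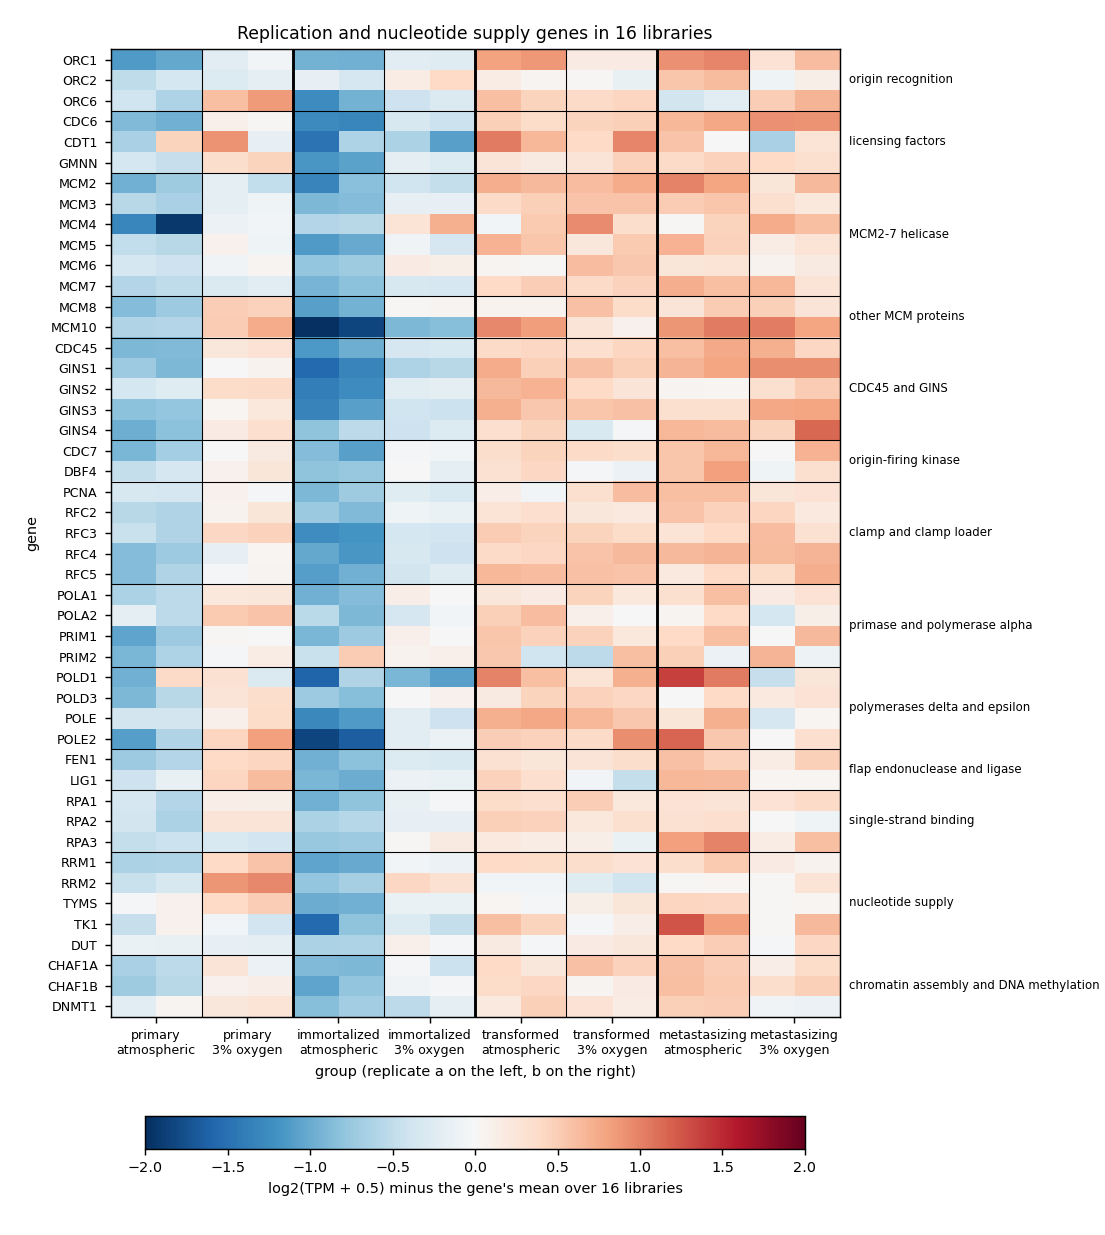
Rows are the 47 members ordered by role and columns the 16 libraries, and color gives log2(TPM + 0.5) minus the mean of that gene over all libraries. The 2 columns of immortalized cells at atmospheric oxygen are the bluest block, in which 41 members had their lowest group mean, and the columns of the 2 later stages are mostly red.

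Replicates agreed closely for most members. The median difference between plates a and b over the 47 members was 0.0858 to 0.141 on the log2 scale in 7 groups and 0.236 in metastasizing cells at 3% oxygen, where it was 0.343 over all genes. The largest SEs of an oxygen difference were those of CDT1, PRIM2 and POLD1, at 0.48, 0.45 and 0.44, followed by TK1, MCM4 and POLE2 at 0.28, 0.27 and 0.25, while the other 41 members had at most 0.20. POLD1 stood at 9.41 and 24.7 TPM in the 2 primary libraries at atmospheric oxygen, CDT1 at 24.8 and 11.7 TPM in those at 3% oxygen, and PRIM2 at 5.44 and 2.59 TPM in transformed cells at atmospheric oxygen. Of the TPM of MCM4 and DBF4, 8.64% and 1.50% were assigned to transcripts annotated as protein_coding, and the rest to other transcripts of the same genes, while this share was at least 52.4% for every other member.

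The promoters of the members carried E2F letters often. RefSeq promoter windows of 300 bases, from 250 before to 50 after each start (GRCh38.p14), were listed for 42 of the 48 members, 11 of them with more than 1 window, and none was listed for MCM4, MCM5, GINS4, POLD3, RPA2 or RPA3. The 42 include UHRF1, whose expression was not measured here. The E2F motif was searched on both strands as TTTCCCGC, TTTCGCGC, TTTGCCGC or TTTGGCGC, so that matches on the 2 strands can overlap. It was found in 24 of 58 member windows (41.4%), in 4.12% of 21111 windows of protein-coding genes and in 3.31% of all 35116 windows. Among 36 windows of the other replication genes described at the end it was found in 7 (19.4%). The CCAAT box (CCAAT on either strand) was found in 51.7% of member windows and 58.3% of those of the other replication genes, against 34.6% of all windows. The cell cycle homology region, searched as TTTGAA on both strands, was found in 5.17% and 5.56% against 15.2%. A match is a description of letters and not a measured binding site. The stretches below are 60 bases upstream of the RefSeq start, 5′ to 3′ on the strand of the gene, with E2F letters in capitals. They are shown because CDT1, GINS2 and CDC7 are among the members described in full, and because MCM6 held the most matches of any member window, 4, of which 2 overlap within the stretch shown. RFC3 and LIG1, also described in full, had such stretches too, which are not shown. Exons of the same genes covered bases 2 to 60 of the RFC3 stretch and all 60 bases of the LIG1 stretch. The MCM6 stretch was added after the matches were counted.
CDT1: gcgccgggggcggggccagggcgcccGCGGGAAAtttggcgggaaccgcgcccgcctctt
GINS2: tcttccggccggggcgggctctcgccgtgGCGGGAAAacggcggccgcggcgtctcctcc
CDC7: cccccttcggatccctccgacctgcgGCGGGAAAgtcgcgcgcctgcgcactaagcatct
MCM6: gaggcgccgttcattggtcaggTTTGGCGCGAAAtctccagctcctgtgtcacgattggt
Matched to GRCh37, these lie at chr16:88870136-88870195 on the plus strand, chr16:85722561-85722620 on the minus strand, chr1:91966609-91966668 on the plus strand and chr2:136634066-136634125 on the minus strand. In GENCODE 44 on GRCh37 the stretches of CDT1 and MCM6 lie outside any transcript, that of GINS2 within an intron of a longer GINS2 transcript, and that of CDC7 within the CDC7 gene, with its last 4 bases in an annotated exon. Among measured members with a window, the 22 with E2F letters and the 19 without had medians of 1.34 and 1.33 (log2 fold change) from immortalized to transformed cells at atmospheric oxygen. For 3% against atmospheric oxygen the medians were 0.74 and 0.74 in primary cells and 0.85 and 0.73 in immortalized cells. No test was made of these differences.

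Replication genes were higher under moderate hypoxia in both non-transformed stages. In primary cells 11 of the 47 members were called higher at 3% oxygen and none lower, where 2.78% of all 12184 genes tested were called higher. These were ORC6, MCM4, MCM8, MCM10, CDC45, GINS4, POLD3, POLE2, FEN1, RRM1 and RRM2. In immortalized cells 5 members were called higher and none lower, against 2.13% of 12049 genes, and these were MCM8, MCM10, GINS2, POLE2 and RRM2. The median over the 47 members was 0.76 in primary and 0.80 in immortalized cells, beside 0.08 and 0.11 over all genes tested. In primary cells 45 members lay above 0, with TK1 and DUT at -0.03, and in immortalized cells all 47 did. Most of these changes fell short of the 2-fold limit. At an adjusted p under 0.05 with no limit on the fold, 37 members were higher in primary cells (17.2% of all genes) and 41 in immortalized cells (17.7%), and none was lower in either. Median-ratio rescaling moved the median of all genes by -0.12 in primary and -0.14 in immortalized cells and left 8 and 2 members called, all higher. A fit of only the 2 primary groups called 5. All 8 fibroblast markers lay below 0 for 3% against atmospheric oxygen in primary cells, with a median of -0.55. Of them 1 was called lower, PDGFRB, as were 307 of all 12184 genes. Their summed level was 19965 and 20461 TPM at atmospheric oxygen and 14706 to 15277 TPM at 3%. In immortalized cells 3 of 8 lay below 0 and 1 was called lower, DCN, as were 335 of all 12049 genes. The sums were 13638 to 13963 TPM against 11689 to 11907 TPM. The part of these markers in the members' values was not tested.

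In the stages with SV40 Large-T no member was called in either direction. The limma test called 0 of 47 members in transformed cells, where 7.48% of genes were called. There 14 members had an unadjusted limma p under 0.05, as did 5537 of all 12242 genes. In metastasizing cells the test also called 0 of 47, where 7.66% of genes were called. There 21 members had an unadjusted limma p under 0.05, as did 5039 of all 12288 genes. At an adjusted p under 0.05 with no limit on the fold, 3 members were higher and 6 lower in transformed cells (18.8% and 15.4% of all genes). In metastasizing cells 3 were higher and 13 lower (10.9% and 17.2% of all genes). The medians were -0.06 and -0.21, beside 0.01 and -0.13 over all genes, and median-ratio rescaling gave -0.0501 and -0.0921 for the members.

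**Figure D2:**
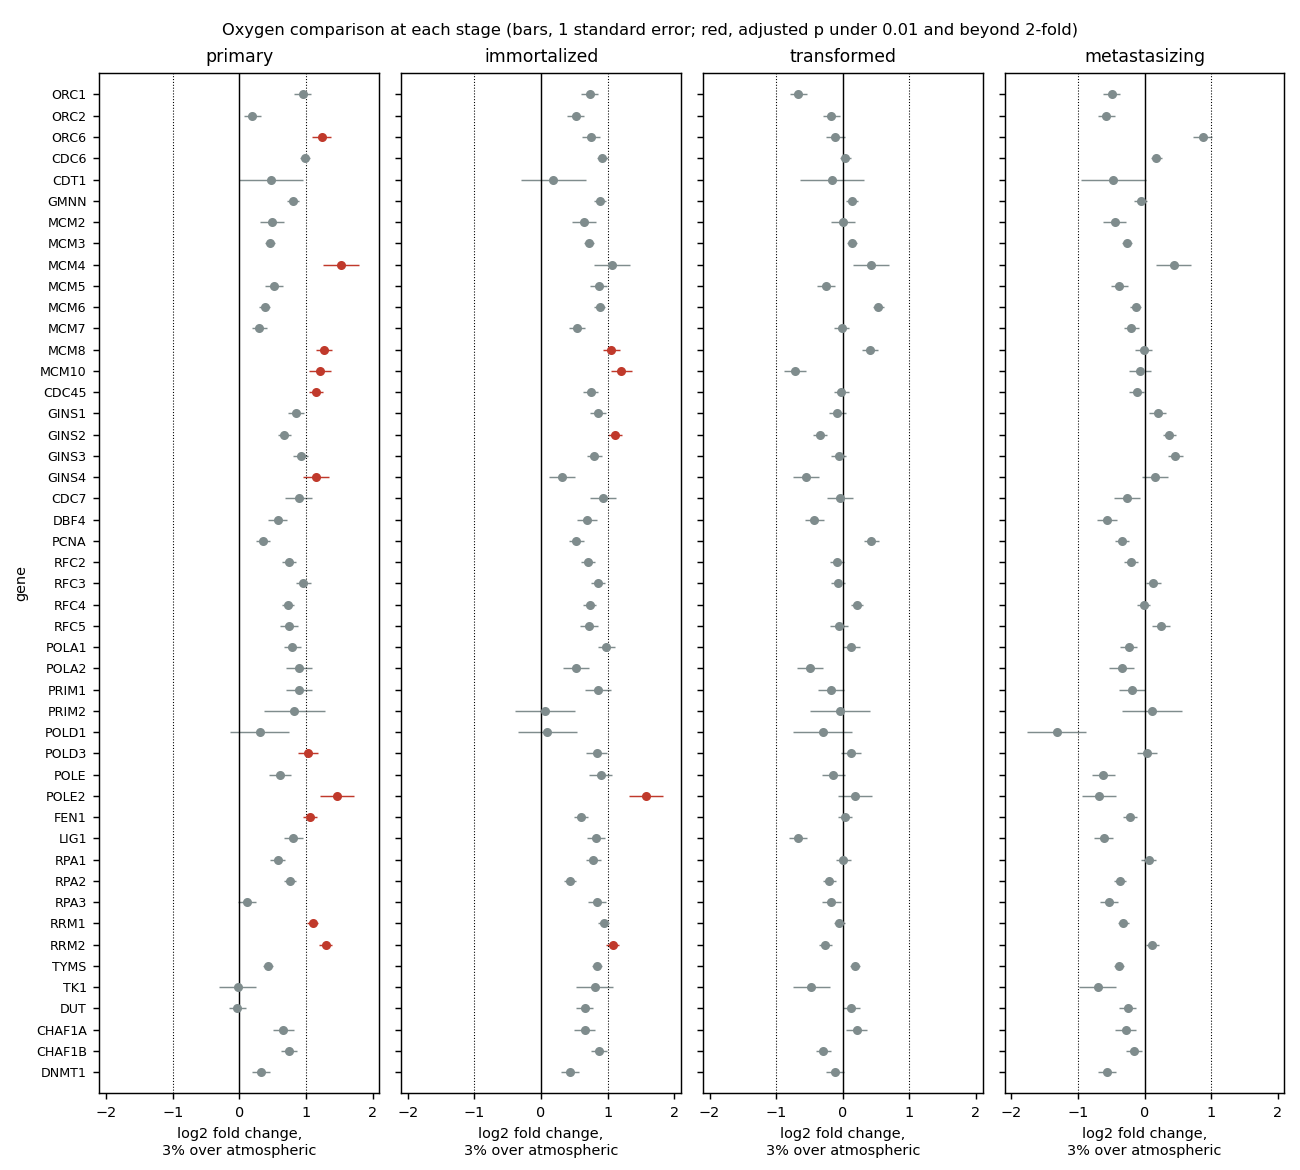
Each panel is a stage, the horizontal axis the log2 fold change of 3% over atmospheric oxygen with a bar of 1 SE, and each row a member, with called members in red and dotted lines at 2-fold. The points sit right of 0 in primary and immortalized cells, with medians of 0.76 and 0.80, and around 0 in the later stages, where none is red.

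The difference between the oxygen responses was itself tested for neighbouring stages. From the immortalized to the transformed stage the response was called lower for 10 of 47 members (5.84% of 12715 genes) and higher for none. All 47 differences were below 0, from -1.93 in MCM10 to -0.10 in PRIM2, with a median of -0.79 beside -0.08 over all genes. The 10 were ORC1, MCM5, MCM10, GINS2, DBF4, POLE, LIG1, RPA3, RRM2 and CHAF1B. They come from 10 of the 13 role groups, 1 from each. With median-ratio rescaling of the libraries 6 of 47 were called, and all of them were lower in the transformed stage. Between primary and immortalized cells limma called 0 of 47 members (1.86% of genes called). An unadjusted p under 0.05 was found for 11 members and 2782 of all 12632 genes. Between transformed and metastasizing cells limma called 0 of 47 (8.47% of genes called). An unadjusted p under 0.05 was found for 14 members and 4848 of all 12590 genes.

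The step from immortalized to transformed cells raised most of the group at atmospheric oxygen and few members at 3%. At atmospheric oxygen 38 of 47 members were called higher and none lower, where 13.2% of 12387 genes were called higher. The median was 1.32 and the range 0.04 to 2.98, beside a median of 0.22 over all genes tested. Median-ratio rescaling, which moved the median of all genes to -0.01, left 27 members called, all of them higher. At 3% oxygen 3 members were called higher, MCM2, MCM10 and GINS1, and none lower, where 8.96% of 12396 genes were called higher. At an adjusted p under 0.05 with no limit on the fold, 31 members were higher at 3% oxygen (25.9% of all genes) and RRM2 was lower. The median there was 0.46, beside 0.11 over all genes. The atmospheric comparison and the oxygen comparison in immortalized cells share the 2 immortalized libraries at atmospheric oxygen, where the members were lowest.

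**Figure D3:**
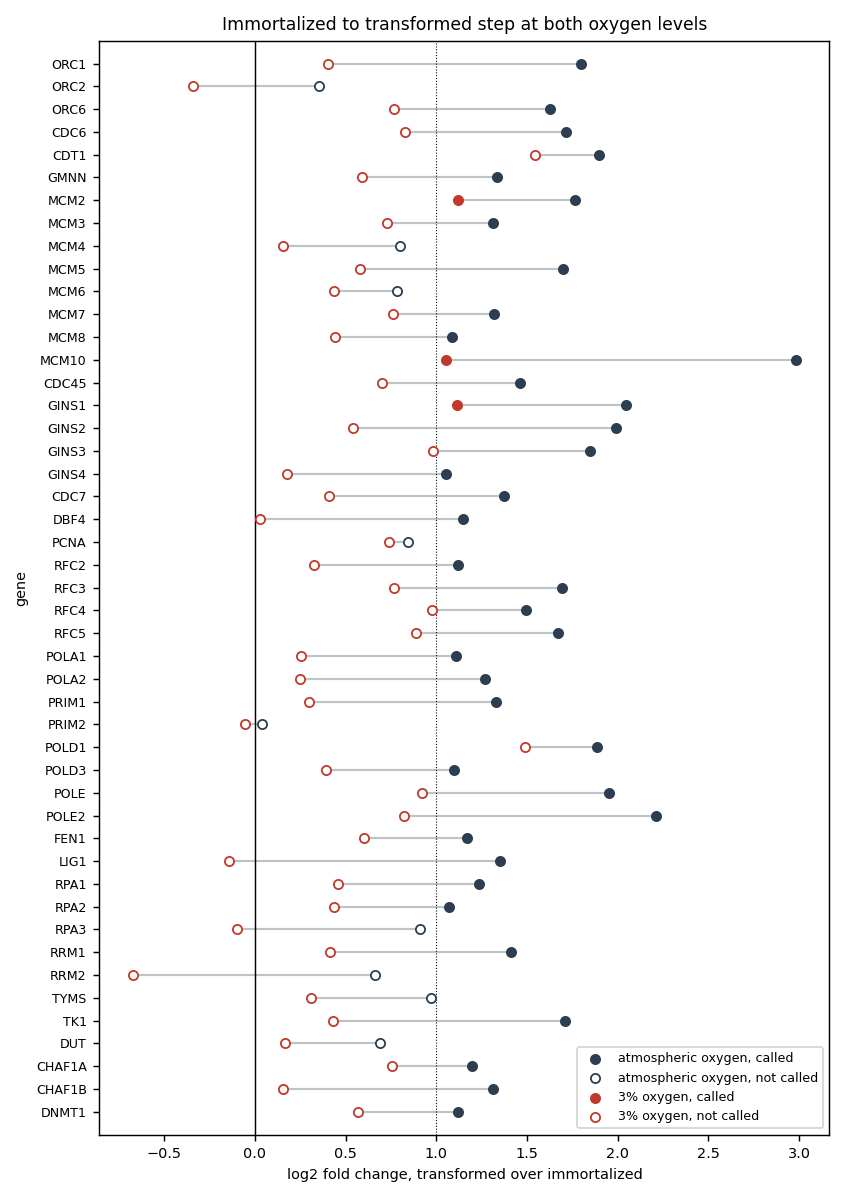
Each row is a member and the horizontal axis the log2 fold change of transformed over immortalized cells, dark at atmospheric and red at 3% oxygen, with filled points for called members. The dark points lie between 0.04 and 2.98 with 38 filled, and the red points between -0.67 and 1.54 with 3 filled.

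Among the subunits that mark origins, ORC1, the largest subunit of the origin recognition complex and the one that leaves chromatin after G1, changed most from immortalized to transformed cells at atmospheric oxygen (GRCh37 chromosome 1, 52838501 to 52870095). Its level was 8.34 and 9.03 TPM in primary cells at atmospheric oxygen and 16.3 and 18.2 TPM at 3%. In immortalized cells it was 9.49 and 9.39 TPM against 16.1 and 15.8 TPM. The 3% libraries were higher in both stages without overlap, but neither change passed 2-fold (0.95 and 0.73 on the log2 scale). Transformed cells reversed the order, with 33.3 and 34.7 TPM at atmospheric oxygen and 21.2 and 21.3 TPM at 3%, a difference of -0.67 (SE 0.12, adjusted p = 0.0021) that also stayed within 2-fold. In metastasizing cells ORC1 stood at 36.1 and 37.4 TPM against 23.1 and 29.1 TPM. The rise to the transformed stage at atmospheric oxygen was 1.80 (SE 0.12, adjusted p = 5.8e-07) and was called, and that at 3% was 0.40. ORC6, the smallest subunit, rose in primary cells from 36.2 and 31.0 TPM to 73.0 and 86.6 TPM (1.24, SE 0.14, adjusted p = 0.000178). It was the member with the highest oxygen value in metastasizing cells, at 36.7 and 41.3 TPM against 67.4 and 76.3 TPM (0.87, SE 0.14, adjusted p = 0.0012), which is short of 2-fold. In transformed cells ORC6 stood at 72.8 and 64.9 TPM against 62.6 and 64.7 TPM. ORC2 stayed between 14.0 and 31.6 TPM in all libraries and was called in no comparison.

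Among the licensing factors, CDC6 and geminin were both higher at 3% oxygen in primary and immortalized cells, within 2-fold, and CDT1 varied between plates. CDC6, the ATPase that helps load the helicase, stood at 41.8 and 39.7 TPM in primary cells at atmospheric oxygen and 83.4 and 78.8 TPM at 3%. In immortalized cells it was 31.8 and 31.0 TPM against 62.0 and 57.6 TPM. These changes of 0.98 (SE 0.08, adjusted p = 3.3e-05) and 0.92 (SE 0.08, adjusted p = 5.5e-05) lay just under 2-fold and far beyond the spread of the plates. In transformed cells it reached 108.0 and 100.3 TPM against 105 and 108 TPM, and in metastasizing cells 123 and 133 TPM against 146 and 144 TPM. GMNN, which encodes geminin, the inhibitor of CDT1, had means of 71.6 TPM at atmospheric and 125 TPM at 3% oxygen in primary cells (0.80, SE 0.09, adjusted p = 0.00022) and of 43.4 and 80.4 TPM in immortalized cells (0.88, SE 0.09, adjusted p = 0.00014). In transformed cells its means were 110.4 and 121.6 TPM and in metastasizing cells 127 and 122 TPM, and the plates overlapped in both stages. CDT1 (chromosome 16, 88870197 to 88875666) had the largest value of the 3 at the transformed step. It stood at 4.41 and 8.38 TPM in immortalized and 27.5 and 21.1 TPM in transformed cells at atmospheric oxygen. Its change was 1.89 with an SE of 0.48 (adjusted p = 0.0060), and it was not called when either transformed library or immortalized library a was left out. At 3% oxygen its values were 8.32 and 5.91 against 17.5 and 26.2 TPM. Its oxygen changes lay between -0.47 and 0.47, each within about 1 SE of 0.

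Of the MCM2-7 helicase, 4 of 6 subunits were called higher from immortalized to transformed cells at atmospheric oxygen, and 1 of them, MCM2, at 3%. The 6 subunits, which form one ring, together held 406 and 437 TPM in immortalized cells at atmospheric oxygen and 1022 and 1076 TPM in transformed cells. At 3% oxygen the sums were 719 and 738 TPM against 1117 and 1101 TPM. The means of the 6 subunits spanned 34.0 to 113 TPM in immortalized cells at atmospheric oxygen and 75.0 to 282 TPM in transformed cells. MCM2 changed most (chromosome 3, 127317253 to 127341279). It stood at 28.3 and 39.6 TPM in immortalized and 118 and 112 TPM in transformed cells at atmospheric oxygen (1.76, SE 0.18, adjusted p = 1.1e-05), and at 54.3 and 51.0 TPM against 110.2 and 119.9 TPM at 3% (1.12, SE 0.18, adjusted p = 0.00051). Primary cells held 36.4 and 43.5 TPM at atmospheric oxygen and 62.4 and 50.5 TPM at 3%. Metastasizing cells held 143 and 124 TPM against 84.4 and 112 TPM. MCM3, MCM5 and MCM7 were also called at the atmospheric step, at 1.31, 1.70 and 1.32, while MCM4 (0.80) and MCM6 (0.78) were not. For oxygen their medians were 0.48 in primary and 0.79 in immortalized cells, beside 0.76 and 0.80 over all members. MCM4 was the 1 subunit called, in primary cells, from 46.6 and 29.9 TPM to 106 and 111 TPM (1.53, SE 0.27, adjusted p = 0.0023). That call was lost when only protein_coding transcripts were summed (0.93), and it was also lost without either 3% library or without atmospheric library b. MCM4 stood at 76.5 and 78.6 TPM against 139.8 and 189.7 TPM in immortalized cells, at 111 and 166 TPM against 224 and 147 TPM in transformed cells, and at 118 and 157 TPM against 194 and 175 TPM in metastasizing cells.

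MCM10, which helps start unwinding at origins but is no subunit of the ring, had the largest change of all members at the transformed step at atmospheric oxygen (chromosome 10, 13203558 to 13253110). It stood at 13.6 and 13.8 TPM in primary cells at atmospheric oxygen and at 30.0 and 35.3 TPM at 3%. In immortalized cells it was down to 3.75 and 5.51 TPM against 11.0 and 11.4 TPM. Transformed cells held 41.2 and 37.8 TPM at atmospheric oxygen and 25.2 and 22.3 TPM at 3%. Metastasizing cells held 39.0 and 43.8 TPM against 43.0 and 36.4 TPM. The oxygen groups did not overlap in the first 3 stages, with 3% higher in primary (1.22, SE 0.16, adjusted p = 0.00054) and immortalized cells (1.21, SE 0.16, adjusted p = 0.00058) and lower in transformed cells (-0.72, SE 0.16, adjusted p = 0.0066, short of 2-fold). The oxygen response of the transformed stage was 1.93 lower on the log2 scale than that of the immortalized stage (SE 0.23, adjusted p = 2.0e-04). From primary to immortalized cells MCM10 fell by 1.49 at atmospheric and by 1.50 at 3% oxygen, and to the transformed stage it rose by 2.98 (SE 0.16, adjusted p = 1.6e-07), a 7.91-fold difference, and by 1.05 at 3%. Without immortalized atmospheric library a its oxygen change in immortalized cells was 0.96 and not called, and without transformed 3% library a its rise at 3% was 0.97 and not called. MCM8, a relative that acts in repair of damaged DNA, was called higher at 3% oxygen in the same 2 stages, from 15.0 and 16.6 TPM to 39.1 and 38.6 TPM in primary cells (1.27) and from 12.8 and 14.2 TPM to 28.2 and 28.8 TPM in immortalized cells (1.05). The rise in immortalized cells was 0.98 and not called without immortalized atmospheric library a. MCM8 stood at 29.1 and 29.1 TPM against 42.1 and 35.8 TPM in transformed cells (0.41, SE 0.13, adjusted p = 0.027, short of 2-fold). In metastasizing cells it was 33.2 and 39.7 TPM against 38.8 and 33.3 TPM.

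**Figure D4:**
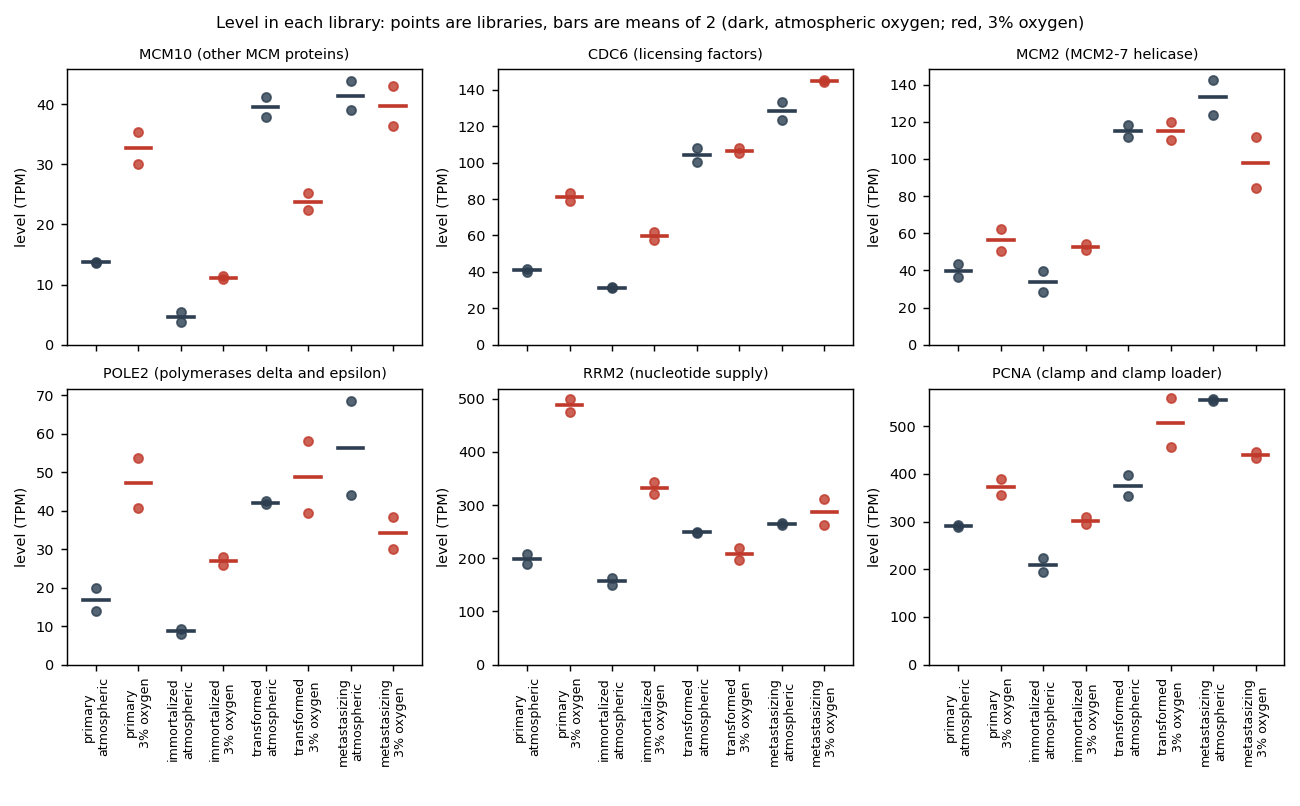
Each panel shows the level in TPM of one member in the 8 groups, with a point per library, a bar at the mean of 2, and red for 3% oxygen. In every panel (MCM10, CDC6, MCM2, POLE2, RRM2 and PCNA) the red points lie above the dark ones in primary and immortalized cells. RRM2 is the one panel whose highest group is primary cells at 3% oxygen, at 474 and 500 TPM.

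CDC45 and the 4 GINS subunits, which complete the active helicase, were all called higher from immortalized to transformed cells at atmospheric oxygen. GINS1 was the largest (chromosome 20, 25371644 to 25433336). It stood at 7.08 and 8.33 TPM in immortalized cells and 36.4 and 30.5 TPM in transformed cells at atmospheric oxygen (2.05, SE 0.12, adjusted p = 2.6e-07). Under 3% oxygen it was 14.0 and 14.6 TPM against 32.7 and 30.2 TPM (1.11, SE 0.12, adjusted p = 4.0e-05), and in the 4 metastasizing libraries 35.1 to 41.8 TPM. Its levels in primary cells were 12.9 and 11.4 TPM at atmospheric oxygen and 21.8 and 22.7 TPM at 3%, a difference of 0.85, as in immortalized cells. GINS2 rose with low oxygen in immortalized cells from 10.0 and 10.9 TPM to 22.8 and 23.5 TPM (1.11, SE 0.10, adjusted p = 6.1e-05), and in primary cells it stood at 20.9 and 22.6 TPM against 34.7 and 35.3 TPM, short of 2-fold (0.68). In transformed cells the 3% plates were the lower ones, at 42.5 and 43.9 TPM against 35.7 and 32.2 TPM, and in metastasizing cells it was 27.8 and 27.6 TPM against 33.7 and 38.5 TPM. GINS4 was called in primary cells, from 16.7 and 18.7 TPM to 37.6 and 42.3 TPM (1.15, SE 0.20, adjusted p = 0.0021). It was not called in immortalized cells, at 19.0 and 23.2 TPM against 25.1 and 27.7 TPM. Its call in primary cells was lost without either atmospheric library or without 3% library b. In transformed cells GINS4 stood at 42.4 and 45.8 TPM against 27.0 and 32.9 TPM, and in metastasizing cells at 53.2 and 52.0 TPM against 46.0 and 75.2 TPM. CDC45 rose from 29.8 and 30.1 TPM to 65.7 and 68.7 TPM in primary cells (1.15, SE 0.11, adjusted p = 6.4e-05).

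Both subunits of the origin-firing kinase were called higher from immortalized to transformed cells at atmospheric oxygen, and neither was called at 3%. CDC7, its catalytic subunit (chromosome 1, 91966408 to 91991321), stood at 7.74 and 6.57 TPM in immortalized and 18.7 and 19.9 TPM in transformed cells at atmospheric oxygen (1.37, SE 0.20, adjusted p = 0.00014). Its levels at 3% oxygen were 14.1 and 13.9 TPM against 19.0 and 18.5 TPM, which was not called. In primary cells it was 7.42 and 8.81 TPM against 14.4 and 16.5 TPM, and in metastasizing cells 21.4 and 23.2 TPM against 14.4 and 23.7 TPM. The activating subunit DBF4 went at the same step from 22.2 and 23.2 TPM to 48.8 and 52.8 TPM (1.14), and its oxygen response was called lower in transformed than in immortalized cells (-1.12, SE 0.20, adjusted p = 0.0021), a call lost without immortalized 3% library a or transformed atmospheric library b. The 1.50% of its TPM in protein_coding transcripts limits how far its values stand for the protein-coding message.

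The clamp was abundant at every stage and its loader followed the group. PCNA, the sliding clamp, stood at 293 and 289 TPM in primary cells at atmospheric oxygen and 388 and 356 TPM at 3%, and at 195 and 224 TPM against 310.1 and 294.3 TPM in immortalized cells. In transformed cells it was 398 and 353 TPM against 456 and 559 TPM, and in metastasizing cells 553 and 556 TPM against 433 and 446 TPM. Its step to the transformed stage at atmospheric oxygen, 0.84 (SE 0.11, adjusted p = 6.3e-05), stayed within 2-fold, and it was the 1 gene of its role group not called there. RFC3, a subunit of the loader that opens the clamp, rose most (chromosome 13, 34392206 to 34540695), from 21.1 and 21.7 TPM to 71.9 and 68.9 TPM (1.69, SE 0.11, adjusted p = 3.5e-07). The levels at 3% oxygen were 39.3 and 38.8 TPM in immortalized and 68.6 and 65.2 TPM in transformed cells. Primary cells held 37.1 and 33.1 TPM at atmospheric oxygen and 67.9 and 69.6 TPM at 3%. Metastasizing cells held 61.0 and 66.5 TPM against 77.8 and 62.8 TPM. RFC2, RFC4 and RFC5 were called at the same step, at 1.12, 1.49 and 1.67.

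In the primase and polymerase alpha complex, which lays down the primers, 3 of 4 genes were called at the atmospheric transformed step. PRIM1, the catalytic primase subunit (chromosome 12, 57124222 to 57146158), stood at 21.7 and 24.9 TPM in immortalized and 60.9 and 57.4 TPM in transformed cells at atmospheric oxygen (1.33, SE 0.19, adjusted p = 0.00016). At 3% oxygen it was 44.2 and 41.0 TPM against 57.4 and 47.7 TPM, a difference of 0.30 that was not called. Its levels in primary cells were 19.7 and 24.8 TPM against 42.1 and 41.0 TPM, and in metastasizing cells 54.7 and 62.9 TPM against 41.0 and 64.9 TPM. POLA1 and POLA2 were called at the atmospheric step as well (1.11 and 1.27). PRIM2 had the smallest value of all members there, 0.04 with an SE of 0.45.

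Of polymerases delta and epsilon, which copy the bulk of the DNA, all 4 measured subunits were called at the atmospheric step. POLE2, the second subunit of polymerase epsilon, had the largest change (chromosome 14, 50110273 to 50155140). It stood at 8.08 and 9.36 TPM in immortalized and 42.6 and 41.7 TPM in transformed cells (2.21, SE 0.25, adjusted p = 2.7e-05). It also had the largest oxygen change of immortalized cells, to 25.9 and 28.0 TPM (1.58, SE 0.25, adjusted p = 0.0014), and in primary cells it rose from 13.9 and 19.9 TPM to 40.8 and 53.7 TPM (1.46, SE 0.25, adjusted p = 0.0021). The oxygen groups did not overlap in either stage, but both calls were lost when only protein_coding transcripts were summed (0.88 in immortalized and 0.80 in primary cells) and when single libraries were left out. These were either 3% library or atmospheric library a in immortalized cells, and 3% library b or atmospheric library a in primary cells. In transformed cells at 3% oxygen POLE2 stood at 39.5 and 58.1 TPM. In metastasizing cells it was 68.5 and 44.1 TPM against 30.1 and 38.3 TPM, which was not called (-0.69). POLD1, the catalytic subunit of polymerase delta, had the lowest oxygen value of metastasizing cells, 49.5 and 39.4 TPM against 13.5 and 22.5 TPM. That difference of -1.32 (SE 0.44, adjusted p = 0.046) was not called. POLD1 stood at 23.5 and 15.4 TPM in primary cells at 3%, at 5.92 and 12.3 TPM against 9.76 and 8.66 TPM in immortalized cells, and at 38.0 and 28.8 TPM against 22.9 and 31.2 TPM in transformed cells. Its atmospheric rise from immortalized to transformed cells (1.89, SE 0.44) was not called without either transformed library or without immortalized library a.

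Okazaki fragment processing was led by LIG1, the ligase that seals nicks (chromosome 19, 48618702 to 48673860). It stood at 24.7 and 23.3 TPM in immortalized and 64.7 and 59.2 TPM in transformed cells at atmospheric oxygen (1.35, SE 0.14, adjusted p = 1.2e-05), while at 3% oxygen it was 43.0 and 42.6 TPM against 44.8 and 33.4 TPM. Its oxygen difference was 0.82 in immortalized and -0.67 in transformed cells, and the response was called lower in the latter (-1.50, SE 0.20, adjusted p = 0.00033). In primary cells it was 34.9 and 42.2 TPM against 63.2 and 72.5 TPM, and in metastasizing cells 74.0 and 73.1 TPM against 47.9 and 47.9 TPM, the same direction as in transformed cells (-0.61, SE 0.14, adjusted p = 0.0078, short of 2-fold). FEN1, the flap endonuclease, rose in primary cells from 61.5 and 67.3 TPM to 134 and 137 TPM (1.06). That call was lost without atmospheric library a. Of the single-strand binding proteins RPA1 rose most at the transformed step (chromosome 17, 1732996 to 1803376), from 50.7 and 56.3 TPM to 128 and 125 TPM (1.23, SE 0.11, adjusted p = 4.9e-06). At 3% oxygen RPA1 was 88.9 and 96.1 TPM against 139.8 and 115.2 TPM, in primary cells 78.5 and 65.7 TPM against 108 and 107 TPM, and in metastasizing cells 118 to 129.7 TPM in all 4 libraries. RPA2 was called as well (1.07), and RPA3 (0.91) was not.

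Nucleotide supply held 2 different patterns. TK1, the thymidine kinase of the salvage pathway (chromosome 17, 76170172 to 76183314), followed the group at the transformed step, from 62.4 and 104 TPM to 279.5 and 251.1 TPM at atmospheric oxygen (1.71, SE 0.28, adjusted p = 0.00035). Under 3% oxygen it was 151 and 132 TPM against 181 and 200.3 TPM. In primary cells its oxygen groups overlapped, at 133 and 195 TPM against 177 and 141 TPM. In metastasizing cells it was 439.8 and 323.5 TPM against 186 and 288 TPM (-0.70, SE 0.28, adjusted p = 0.082, not called). RRM2, the regulated small subunit of ribonucleotide reductase, was instead highest in non-transformed cells at low oxygen. It rose from 188 and 207 TPM to 474 and 500 TPM in primary cells (1.30, SE 0.10, adjusted p = 2.4e-05) and from 151 and 163 TPM to 342 and 320.1 TPM in immortalized cells (1.08, SE 0.10, adjusted p = 6.0e-05). In transformed cells it stood at 248 and 249 TPM against 219 and 196 TPM, and in metastasizing cells at 263 and 266 TPM against 263 and 311 TPM. From immortalized to transformed cells RRM2 thus went up at atmospheric oxygen (0.66, SE 0.10) and down at 3% (-0.67, SE 0.10, adjusted p = 0.00025), neither beyond 2-fold. The difference between these changes is the difference of the oxygen responses, -1.34 (SE 0.14, adjusted p = 8.8e-05), which was called. The large subunit RRM1 rose with low oxygen in primary cells (1.10, SE 0.09) and to the transformed stage at atmospheric oxygen (1.41, SE 0.09). RRM1 and TYMS also had their highest group mean in primary cells at 3% oxygen, at 225 and 417 TPM. Their plates there overlapped those of metastasizing cells at atmospheric oxygen, where the means were 219 and 409 TPM. The level of RRM2 relative to RRM1, both per transcript length, was 1.81 to 2.23 in the 8 libraries of the non-transformed stages and 0.991 to 1.28 in the 4 transformed libraries and the metastasizing libraries at atmospheric oxygen. In metastasizing cells at 3% oxygen it was 1.45 and 1.84. This ratio was chosen after the values were seen. TYMS and DUT, which make and protect the thymidine pool, changed by 0.97 and 0.69 at the atmospheric transformed step and were called in no comparison.

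Chromatin is rebuilt and methylated behind the fork. CHAF1B, a subunit of the histone chaperone CAF-1, had the largest change of the 3 measured members (chromosome 21, 37757690 to 37791313), from 9.02 and 11.0 TPM to 25.1 and 25.9 TPM at the atmospheric step (1.31, SE 0.12, adjusted p = 4.4e-06). Its levels at 3% oxygen were 18.4 and 18.8 TPM against 19.9 and 21.6 TPM, and the oxygen response was lower in transformed cells (-1.16, SE 0.17, adjusted p = 0.00054), a call lost when only protein_coding transcripts were summed (-0.91). Primary cells held 11.6 and 12.9 TPM against 20.5 and 21.1 TPM, and metastasizing cells 29.5 and 28.0 TPM against 24.6 and 26.8 TPM. CHAF1A (1.19) and the maintenance DNA methyltransferase DNMT1 (1.12) were called at the same step.

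The 2 other steps gave few calls. From primary to immortalized cells 2 of 47 were called lower at atmospheric oxygen, MCM10 and GINS2, where 6.26% of genes were called lower, and 2 at 3% oxygen, MCM10 and ORC6, where 5.04% were. The call of GINS2 was lost without primary library b or immortalized library a, and that of ORC6 without primary library b. The medians were -0.35 and -0.31, beside -0.09 and -0.06 over all genes, and 41 and 40 members lay below 0. At an adjusted p under 0.05 with no limit on the fold, 24 members were lower and 1 higher at atmospheric oxygen (20.2% and 16.1% of all genes), and 22 were lower and 2 higher at 3% (16.5% and 13.1%). TYMS went at atmospheric oxygen from 298 and 324 TPM to 154 and 157 TPM (-0.996, SE 0.07, adjusted p = 3.2e-06), just inside the 2-fold limit. From transformed to metastasizing cells limma called 0 of 47 at atmospheric oxygen (4.12% of genes called) and 0 of 47 at 3% (5.92% of genes called). An unadjusted p under 0.05 was found for 16 and 14 members. Over all genes it was found for 4089 of 12203 and 4877 of 12288. The medians were 0.20 and 0.00, beside 0.06 and -0.07. With no limit on the fold, at an adjusted p under 0.05, 5 members were higher and 2 lower at atmospheric oxygen (11.8% and 7.61% of all genes), and 5 were higher and 4 lower at 3% (11.4% and 16.2%).

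Of 34 other replication genes, 17 were called higher and 2 lower from immortalized to transformed cells at atmospheric oxygen, and 4 higher at 3%. Over all genes 13.2% were called higher and 1384 of 12387 lower at atmospheric oxygen, and 8.96% higher at 3%. The largest rise at atmospheric oxygen was in CHTF18, part of an alternative clamp loader, from 4.39 to 25.9 TPM (2.56, SE 0.63, adjusted p = 0.0050), and the largest fall in POLD4, the smallest subunit of polymerase delta, from 66.3 to 26.9 TPM (-1.28). The largest rise at 3% oxygen was in RECQL4, a helicase, from 3.73 to 16.4 TPM (2.01). From primary to immortalized cells the called genes were DBF4B at atmospheric oxygen (-1.08) and RECQL4 at 3% (-1.70). Over all genes 6.26% and 5.04% were called lower at these 2 oxygen levels. With low oxygen 5 of the 34 were called higher in primary cells and 5 in immortalized cells, where 2.78% and 2.13% of all genes were. None was called lower, and the checkpoint adaptor CLSPN was the largest in both (1.53 and 1.34). In metastasizing cells none of the 34 was called higher and 2 were called lower, where 565 of all 12288 genes were called lower. These 2 were chosen for description after their values were seen. SAMHD1, which breaks down deoxynucleotides, went from a mean of 195 to 22.7 TPM (-3.07, SE 0.38, adjusted p = 0.000285), and DBF4B from 42.4 to 19.1 TPM (-1.13). The oxygen response was called lower in transformed than in immortalized cells for 10 of the 34 (5.84% of all genes) and higher for none.

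Of 6 general proliferation markers, 1 was called higher at 3% oxygen in primary cells and 3 in immortalized cells, where 2.78% and 2.13% of all genes were. At an adjusted p under 0.05 with no limit on the fold, 4 of the 6 were higher in primary cells (17.2% of all genes). In immortalized cells 6 of 6 were (17.7% of all genes). MKI67 stood at 54.5 and 63.9 TPM in primary cells at atmospheric oxygen and 121 and 152 TPM at 3% (1.19, SE 0.24, adjusted p = 0.0051), and at 40.9 and 47.0 TPM against 110.2 and 82.9 TPM in immortalized cells (1.11, SE 0.24, adjusted p = 0.0068). In the later stages it was 41.8 to 76.5 TPM in every library, and at the transformed step its differences were 0.54 at atmospheric and -0.58 at 3% oxygen, neither of them called. TOP2A went at that step from 111 and 125 TPM to 231 and 222 TPM (0.94), short of 2-fold. Of the 6 markers 3 were called higher at the atmospheric transformed step (13.2% of all genes), and their summed level was lowest in immortalized cells at atmospheric oxygen, 440.2 and 489.1 TPM. Of the 8 fibroblast markers 5 were called lower at the transformed step at each oxygen level. Over all genes 1384 of 12387 were called lower at that step at atmospheric oxygen and 915 of 12396 at 3%. In metastasizing cells 5 of the 8 were called lower at 3% oxygen against atmospheric, as were 565 of all 12288 genes. The part of proliferation rate and of the lower level of fibroblast genes in the members' values was not tested.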

How the data were processed

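RNA of 16 libraries was sequenced on a poly(A)-selected, stranded protocol and, per the labels and the study's methods, quantified by the authors with kallisto 0.42.1 against GRCh37 transcripts. The deposited unit is TPM per transcript, which the authors normalized to 1000000 per library, so depth is unknown and a count test was not possible. Here TPM were summed per gene through GENCODE release 44 (151453 of 180253 transcripts matched, 88.2% to 90.1% of TPM). log2(TPM + 0.5) was fitted with limma 3.58.1 in R 4.3.3, with 8 group coefficients, empirical Bayes with trend and 8 residual degrees of freedom. Protein-coding genes whose mean reached 1 TPM in either compared group were tested, and calls needed a Benjamini-Hochberg adjusted p under 0.01 and a log2 fold change beyond 1. The study itself used estimated counts, which were not used here. The members and lists were chosen with earlier results of these data known. Genes described in full were, per role, the member with the largest called change from immortalized to transformed cells at atmospheric oxygen, and the 4 members with the largest oxygen change per stage. CDC6 and PCNA were added after their values were seen. Plates share only a letter, with correlations of same-letter deviations from -0.145 to 0.217. Alternatives were other pseudocounts, no filter, median-ratio rescaling, other fits, protein_coding transcripts alone and leaving out each library.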

Additional observations from a re-analysis of the deposited data

Results flagged for a closer look

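For 10 members the oxygen response differed between the immortalized and the transformed stage by the interaction term of the limma fit, always with the lower response in transformed cells. The differences on the log2 scale were -1.93 for MCM10, -1.50 for LIG1, -1.45 for GINS2, -1.39 for ORC1 and -1.34 for RRM2, and these 5 stayed called in every alternative run. They were -1.16 for CHAF1B, -1.12 for DBF4, -1.12 for MCM5, -1.03 for POLE and -1.01 for RPA3, and these calls were lost under 1 or more alternatives. POLE lost its call when any 1 of the 8 libraries was left out. RPA3 lost it without immortalized 3% library b, either immortalized atmospheric library, transformed 3% library b or either transformed atmospheric library. MCM5 lost it without immortalized 3% library a or transformed 3% library a. In all 10 the 2 plates at 3% oxygen were both above those at atmospheric oxygen in immortalized cells and both below them in transformed cells. The 10 were called on these same libraries, so this order is no further support for the calls. Members that were not called showed this order too, among them POLA2 and GINS4. The share of all genes with this order was not counted.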

How the results depend on the processing

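Under the alternatives, values of called members kept the call in 919 repeats, lost it in 91 and reversed in 0. Of the 919, 71 came from the looser limit of an adjusted p under 0.05 with no fold limit. No call could be lost under that limit. A further 49 came from crossing the letters of the plates. The replicate block left 11, 5, 0, 0, 2, 2, 38, 3, 0, 0, 0, 10 and 0 members called in the 13 comparisons and changed no call. It fits 1 offset between plates a and b shared by all libraries, and does not pair plates within a comparison. As every group holds 1 plate of each letter, that offset leaves the fold changes unchanged. Crossing the letters, chosen after seeing the data, gave 11 in primary cells and 38 at the atmospheric transformed step. At an adjusted p under 0.05 with no fold limit the counts were 37, 41, 9 and 16 for oxygen from primary to metastasizing cells, 25 and 24 from primary to immortalized (24 and 22 of them lower), 32 to the transformed stage at 3%, 7 and 9 to the metastasizing stage, and 4, 40 and 7 for the differences of responses. Median-ratio rescaling gave 2 for oxygen in immortalized cells, 1 to the metastasizing stage at 3%, and 6 and 1 for the later differences of responses. Fitting only the groups compared gave 5 in primary cells and 1 from primary to immortalized cells at atmospheric oxygen, where a pseudocount of 1 also gave 1. Medians under rescaling were 0.66, -0.0501 and -0.0921 for oxygen in immortalized, transformed and metastasizing cells, 1.09 and 0.38 for the transformed step, and -0.64 for its difference of responses. With protein_coding transcripts alone they were -0.0885 for oxygen in transformed cells, 0.51 for the transformed step at 3%, 0.14 to the metastasizing stage at atmospheric oxygen, and -0.86. Leaving out each library gave 2 to 7 called for oxygen in immortalized cells (2 without immortalized atmospheric library a), 1 to 4 from primary to immortalized cells at atmospheric oxygen (1 without primary library b or immortalized library a, 4 without primary library a or immortalized library b), 1 to 2 at 3% (1 without primary library b), 3 to 5 at the transformed step at 3% (5 without immortalized library a), 0 to 1 at the metastasizing step at 3% (1 without metastasizing library a), and 0 to 2 for the last difference of responses (2 without metastasizing 3% library a). The medians then ran from -0.0866 to -0.0362 for oxygen in transformed cells, 0.45 to 0.50 for the transformed step at 3%, and -0.0291 to 0.12 and -0.86 to -0.74 for the first 2 differences of responses. Depth is unknown, and 2 plates per group limit every test.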
